A study of Sus scrofa with 4 samples.

Results

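The insulin-like growth factor binding proteins (IGFBP) were followed at the single cell level across porcine pancreatic ductal organoids (PPDO) and the cell classes of primary porcine pancreas. The 7 genes IGFBP1 to IGFBP7 were chosen by name, and all features of a gene were summed in each count table. Of these 7 genes, 6 had features, among 30282 genes in all, and IGFBP3 was not analysed here. The 4 scRNA-Seq libraries fell into 2 groups. PPDO 1 and PPDO 2 were 2 organoid lines, grown in matrix from ductal cells of 1 late postnatal and 1 adult pig. The late postnatal line was at passage 4 and the adult line at passage 7, and the sources do not say which library was which. In the paper's account, mature duct cells made up only a minority of such cultures by then. The 2 lines therefore stand for passaged cultures and not for early-passage PPDO. Their medium held, among others, N2 and B27 supplements, WNT3a, R-spondin1, noggin, EGF, FGF10, gastrin, nicotinamide, N-acetylcysteine, prostaglandin E2 and the TGF-beta receptor inhibitor A83-01. For maintenance, a conditioned medium took the place of added WNT3a, R-spondin1 and noggin. Primary pancreas 1 and 2 came from 2 late postnatal pigs, a wild-type animal and an animal with an INS-eGFP transgene, in which the insulin gene's promoter drives a green fluorescent protein. If the library numbers follow the order in the methods, ducts were picked by hand from the first pancreas, whereas lectin-positive ductal cells, eGFP-positive cells and whole suspension were sorted and pooled from the second. Culture, passage, animal, age, dissociation and sort therefore differed between the groups and cannot be told apart in any comparison of PPDO with primary cells.

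IGF1 and IGF2 circulate and diffuse bound to IGFBPs, which lengthen the life of the growth factors, keep them from the IGF1 receptor, or hold them near cells and matrix for later release. Proteases such as PAPPA, PAPPA2 and HTRA1 cut the binding proteins and free the ligand. IGFBP1 to IGFBP6 bind IGFs tightly, IGFBP6 with a preference for IGF2, whereas IGFBP7 binds them weakly and is best known as a matrix protein of blood vessels. Fibroblasts and the cells of blood vessels are well-known local sources of these proteins.

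After filtering, 8885 and 7337 PPDO cells and 5671 and 4261 primary cells were kept, with a median of 34176, 34459, 10169 and 23651 UMIs per cell (a UMI, or unique molecular identifier, marks 1 captured molecule). No 2 libraries shared more than 23 cell barcodes. Primary cells were clustered without the IGFBP genes, and clusters were named from marker lists. Primary pancreas 1 and 2 held 2161 and 1171 ductal-like, 257 and 56 acinar-like, 101 and 2203 endocrine-like, 1073 and 264 endothelial-like, 440 and 41 mural-like and 709 and 138 immune-like cells, with 273 and 380 cells unnamed. The unnamed cells include cluster 19 (149 and 17 cells), led by TCN1 and TM4SF20 and with LGR5 among its leading genes. In it 6 of 8 matched ductal markers passed, but its cells are in no ductal-like sum. Fibroblast-like and Schwann-like cells numbered 313 and 344 in primary pancreas 1. Levels are given as CPM, the UMIs of a gene per 1000000 UMIs of all cells of a class in a library, so a level is relative to the other genes. In endocrine-like cells the 14 endocrine markers alone took 422650 and 541920 CPM, which lowers the CPM of every other gene there. Primary pancreas 2 held only 7 fibroblast-like cells and 1 Schwann-like cell, so these 2 classes are described from primary pancreas 1. The ductal-like cells of the 2 pigs fell into different clusters, with clusters 0, 7 and 8 from primary pancreas 1 and clusters 1 and 25 from primary pancreas 2, apart from 1 cell. The PPDO label was checked against ductal markers: the 8 matched markers summed to 1040 and 920 CPM in PPDO, against 27492 and 31331 CPM in primary ductal-like cells, while the 7 matched basal markers summed to 8933 and 11629 CPM against 850 and 725 CPM.

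The identity of the counted features matters for 3 members. Each gene had a feature for the gene model and a second one named as an extension of it, of 10 kb by name for 5 of them and of 1 kb for IGFBP6. In RefSeq (Sscrofa11.1), IGFBP1 (ENSSSCG00000016728) lies on chromosome 18 at 50018487-50022799, and IGFBP3 lies 9062 bases from it, at 50002921-50009425. IGFBP2 (ENSSSCG00000035392) and IGFBP5 (ENSSSCG00000025924) are neighbours on chromosome 15, at 118822092-118850985 and 118861816-118877787, 10831 bases apart. IGFBP4 (ENSSSCG00000017472) spans 21966524-21980043 on chromosome 12, with TNS4, which encodes a focal adhesion adaptor, 14337 bases away. IGFBP6 (ENSSSCG00000000261) is on chromosome 5 at 18352884-18357225 and IGFBP7 (ENSSSCG00000008913) on chromosome 8 at 56283089-56357822. The IGFBP7 model overlaps that of POLR2B, a subunit of RNA polymerase II.

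Of the IGFBP1 UMIs, 99.97% and 99.98% were counted in the extension in PPDO 1 and 2, and only 3 UMIs in each of these libraries fell in the gene model itself. In the primary libraries the share was 98.9% and 95.7%. What is called IGFBP1 below is therefore a signal beside the gene. The extent and direction of the extension are not given in the sources used here, so whether it reaches towards IGFBP3 is unknown, and which gene the signal came from was not tested. For IGFBP4 the extension held 84.9% and 92.6% of UMIs in PPDO but 7.07% and 3.24% in primary pancreas. For IGFBP2 the extension was minor in PPDO, at 4.63% and 10.5%, but in mural-like cells it held 69.2% and 80.5% of UMIs, and in fibroblast-like cells of primary pancreas 1 91.8%. The extension took at most 3.62% of IGFBP5, IGFBP6 and IGFBP7 UMIs in any whole library. In ductal-like cells it held 8.30% and 40.5% of the 1421 and 257 IGFBP7 UMIs of primary pancreas 1 and 2. Whether counting was strand-specific is not given in the sources used here.

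**Figure D1:**
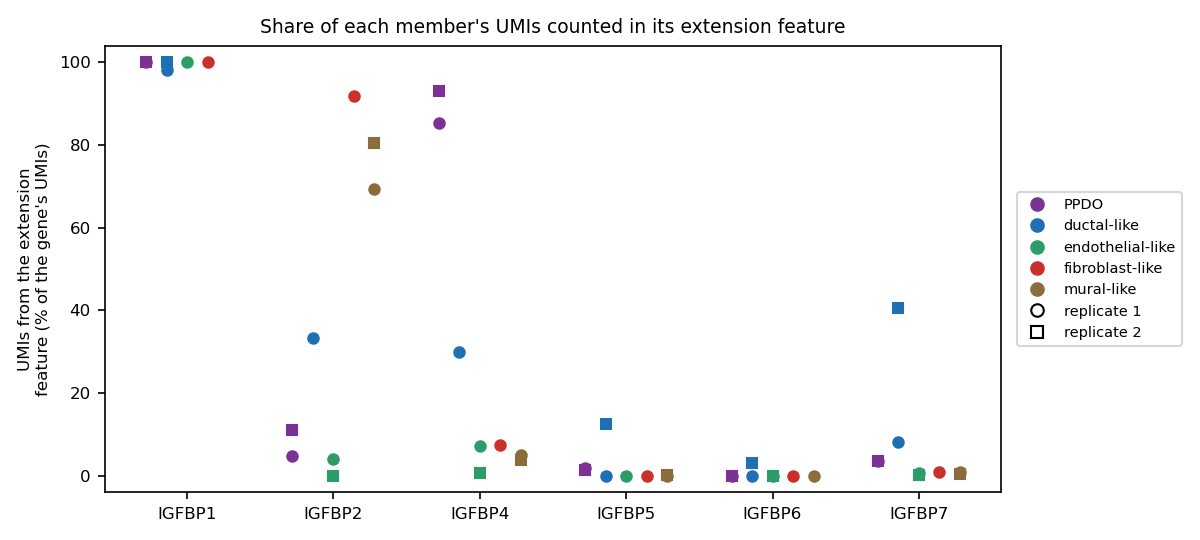
Share of each member's UMIs that were counted in its extension feature, in percent (y axis), for PPDO and 4 primary classes. Each point is 1 library with at least 10 UMIs of the gene, and the symbol gives the replicate. IGFBP1 sits near 100% throughout, IGFBP4 is highest in the PPDO libraries, and IGFBP2 is high in fibroblast-like and mural-like cells.

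The central comparison set IGFBP levels in these passaged organoids against those of primary ductal-like cells. These cells came from other pigs than the organoid lines, so it cannot show whether levels of the source cells were kept. All 6 measured members, with IGFBP1 taken as the signal beside its gene, were higher in PPDO than in ductal-like cells of primary pancreas. The difference ran from 10.3-fold (IGFBP7) to 1103-fold (IGFBP2), by edgeR's quasi-likelihood test with Benjamini-Hochberg adjustment over 23510 genes. As background, 22.8% of all genes tested were called higher in PPDO, 20.9% were called lower and 43.7% were called in either direction. The median log2 fold change of the members was 7.44, beside 0.01 for all genes tested.

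IGFBP2, a binding protein of fetal and adult serum that many epithelia secrete, had 313 and 124 CPM in PPDO 1 and 2, against 0.278 and 0.240 CPM in ductal-like cells of primary pancreas 1 and 2. Only 12 and 6 UMIs were behind the primary values. The log2 fold change was 10.11 ± 0.68 (SE; adjusted p = 0.00109, edgeR), the 60th highest of all genes tested. IGFBP5, which binds to extracellular matrix, had 146 and 127 CPM in PPDO and 0.788 and 0.640 CPM in the primary sums. The fitted log2 difference was 7.98 ± 0.25 (adjusted p = 0.000315, edgeR). The ratio of its 2 PPDO libraries was the smallest of the 6 members.

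IGFBP6, the member that prefers IGF2, had 59.5 CPM in PPDO 1 and 184 CPM in PPDO 2, while both ductal-like sums were low, at 1.25 and 1.28 CPM. Its log2 fold change was 7.05 ± 0.75 (adjusted p = 0.00309, edgeR). IGFBP7 was the only member with more than 2 CPM in primary ductal-like cells, at 32.9 and 10.3 CPM. In PPDO it had 203 and 139 CPM, and the log2 fold change of 3.36 ± 0.69 was the smallest of the 6 (adjusted p = 0.0184, edgeR). Within ductal-like cells IGFBP7 reached 176 CPM in cluster 8, a group of 420 cells with a median of only 4906 UMIs, and stayed between 9.87 and 26.7 CPM in clusters 0, 1, 7 and 25. In cluster 8, whose first leading genes have no symbol here, 5 of 8 matched ductal markers passed. It also held 18 of the 34 IGFBP5 UMIs and 8 of the 12 IGFBP2 UMIs of the ductal-like sum of primary pancreas 1. Without cluster 8, an alternative added after seeing the data, the log2 fold change of IGFBP7 was 3.72 (adjusted p = 0.00735, edgeR).

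IGFBP4, an inhibitory binding protein and the main substrate of PAPPA, had 62.9 and 52.7 CPM in PPDO 1 and 2 and 0.464 and 0.160 CPM in the ductal-like sums, and its log2 fold change was 7.83 ± 0.52 (adjusted p = 0.00107, edgeR). Without extensions the PPDO levels were 9.34 and 3.63 CPM against 0.325 and 0.160 CPM, and the log2 fold change was 5.07 (adjusted p = 0.00622, edgeR). TNS4, its neighbour, had 385 and 430 CPM in PPDO and at most 0.480 CPM in ductal-like cells. The IGFBP1 signal had 33.9 and 45.0 CPM in PPDO and 1.21 and 0.480 CPM in the primary sums, and PPDO exceeded them on the log2 scale by 5.90 ± 0.57 (adjusted p = 0.00243, edgeR). Without the extension IGFBP1 was at 0.00997 and 0.0114 CPM in PPDO, too low to be tested.

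**Figure D2:**
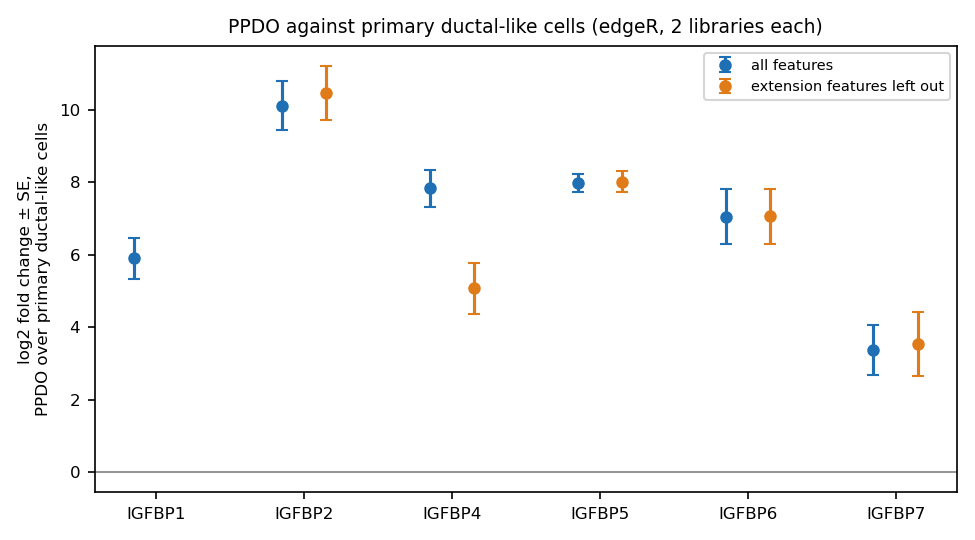
Log2 fold change of PPDO over primary ductal-like cells (y axis) for each member, with its standard error, from edgeR on 2 libraries a group. Blue points use all features of a gene and orange points leave out the extensions: IGFBP2, IGFBP5, IGFBP6 and IGFBP7 barely moved, IGFBP4 went from 7.83 to 5.07, and IGFBP1 had no value without its extension.

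RNA of other cell types was measured beside these differences. The 9 fibroblast markers summed to 5.53 and 4.12 CPM in PPDO and to 10.6 and 3.44 CPM in ductal-like cells. The 10 mural markers summed to 97.8 and 103 CPM in PPDO and 85.5 and 82.4 CPM in ductal-like cells, and the 11 endothelial markers to 77.2 and 66.3 CPM against 127 and 73.7 CPM. All markers of these 3 lists had at least 1 UMI in each sum. The 12 immune markers summed to 4834 and 4541 CPM in PPDO and 1076 and 1101 CPM in ductal-like cells. CD74, the invariant chain of MHC class II, made up nearly all of these sums, with 4811 and 4523 CPM in PPDO against 1070 and 1092 CPM, whereas PTPRC, the pan-leukocyte marker, had 0.419 and 0.210 CPM in PPDO against 2.32 and 5.28 CPM. CD68 went the other way from PTPRC, with 19.4 and 15.7 CPM in PPDO against 0.626 and 0.160 CPM in ductal-like cells. The remaining listed markers had at most 2.62 CPM in PPDO, the level of ITGAM in PPDO 1. LYZ had no UMI in any of the 4 sums, but none in immune-like cells either, so its absence is not informative. NKG7 had none in PPDO 2 or in ductal-like cells of primary pancreas 2. In primary pancreas 2, where most cells were endocrine-like, the 14 endocrine markers summed to 7980 CPM in ductal-like cells, against 138 CPM in primary pancreas 1. In the stromal classes themselves the same lists reached 24473 CPM (fibroblast-like, primary pancreas 1), 20537 and 17661 CPM (mural-like) and 9843 and 12075 CPM (endothelial-like).

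With only 2 libraries a group, single libraries moved the size of the difference. Without primary pancreas 1 the log2 fold changes rose to 6.89 (IGFBP1), 9.02 (IGFBP4) and 4.58 (IGFBP7), and without primary pancreas 2 that of IGFBP7 was 2.69. Without PPDO 1 IGFBP2 was at 9.34, IGFBP6 at 7.66 and IGFBP7 at 3.10, where IGFBP7 no longer passed (adjusted p = 0.0585, edgeR), and without PPDO 2 IGFBP6 was at 5.95. Keeping suspected doublets among the primary cells lowered IGFBP2 to 8.84, IGFBP4 to 6.46, IGFBP5 to 6.04, IGFBP6 to 6.42 and IGFBP7 to 2.50. Restricting PPDO to cluster 7, the one PPDO cluster named ductal-like by its markers, gave 9.44 for IGFBP2, 6.55 for IGFBP4, 7.39 for IGFBP5 and 4.33 for IGFBP6. Every one of these values except that of IGFBP7 without PPDO 1 passed the test. A fit without 1 library leaves a single library in that group, which is assumed to vary like the other group, and all p-values measure only the spread between these libraries.

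The same genes were then placed among the primary classes, as a description without a test. Values are from libraries with at least 20 cells of the class, unless fewer are stated. IGFBP7 was highest in the vascular classes, where endothelial-like cells had 2564 and 6807 CPM in primary pancreas 1 and 2, and mural-like cells 2424 and 5602 CPM. These ranges overlapped, and primary pancreas 2 was the higher library in both classes. Fibroblast-like cells had 1468 CPM (95% Poisson interval 1425 to 1511, which covers counting error only). PPDO, at 139 to 203 CPM, ranked next together with Schwann-like cells, at 148 CPM, a class in which fibroblast markers summed to 2596 CPM. Immune-like (40.7 and 16.1 CPM), ductal-like, endocrine-like (12.4 and 9.80 CPM) and acinar-like cells (14.7 and 2.38 CPM) formed a low group in which neighbouring ranges overlapped. The 124 cells of unnamed cluster 23 in primary pancreas 1, led by CXCL9 and FABP4, had 3411 CPM.

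IGFBP5 was highest in mural-like cells, the pericytes and smooth muscle that wrap vessels, with 675 and 2051 CPM. Fibroblast-like cells followed with 457 CPM (434 to 482), and PPDO came next with 127 to 146 CPM, above Schwann-like cells at 40.5 CPM. None of these 4 ranges overlapped. Endocrine-like cells had 15.4 and 20.2 CPM, acinar-like cells 3.57 and 18.2 CPM, and endothelial-like cells 13.9 and 2.40 CPM. The acinar-like range overlapped both of the others, which did not overlap each other. Among the named classes, ductal-like cells were at the bottom with immune-like cells, which had 2.06 CPM in primary pancreas 1 and 0 UMIs in primary pancreas 2, a count that allows up to 2.01 CPM (the level of 3 UMIs, used as the limit wherever none was counted). Unnamed cluster 19, in which ductal markers passed, had 21.5 CPM in primary pancreas 1 (17 UMIs) and 0 UMIs in primary pancreas 2.

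IGFBP6 was highest in fibroblast-like cells, with 1746 CPM (1700 to 1793) in the 313 cells of primary pancreas 1. The 7 fibroblast-like cells of primary pancreas 2 held 71 IGFBP6 UMIs, or 1031 CPM (805 to 1300). Endothelial-like cells had 103 and 143 CPM, within the range of PPDO, at 59.5 to 184 CPM. Mural-like cells had 37.2 and 19.2 CPM and Schwann-like cells 5.92 CPM. Immune-like, ductal-like and acinar-like cells were between 0 and 2.23 CPM, and endocrine-like cells had the lowest mean, with 8 UMIs among 84995959 in primary pancreas 2. Endocrine-like cells had no UMI in primary pancreas 1, which allows up to 1.77 CPM. Acinar-like cells had none in primary pancreas 2, which allows up to 2.38 CPM.

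IGFBP4 was high in 3 stromal classes, with 67.9 and 216 CPM in mural-like cells, 99.8 CPM (88.9 to 112) in fibroblast-like cells and 52.0 and 92.4 CPM in endothelial-like cells. The mural-like range overlapped both of the others. The PPDO range, 52.7 to 62.9 CPM, overlapped that of endothelial-like cells but came mostly from the extension. Without extensions the 3 stromal classes kept 64.6 and 208 CPM, 92.3 CPM and 48.2 and 91.7 CPM, all above PPDO. Schwann-like cells had 15.5 CPM, immune-like cells 4.12 and 2.01 CPM, endocrine-like cells 1.18 and 0.0941 CPM, and acinar-like cells no UMI in either library, which allows up to 1.19 and 2.38 CPM.

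IGFBP2 was the one member whose highest mean was in PPDO on its gene model alone. With all features, mural-like cells had 130 and 211 CPM, inside the PPDO range of 124 to 313 CPM, and fibroblast-like cells 58.8 CPM. Without extensions mural-like cells fell to 40.0 and 41.1 CPM and fibroblast-like cells to 4.84 CPM, whereas PPDO kept 298 and 110 CPM. The extension UMIs of IGFBP2 equalled 13.3% and 8.29% of the IGFBP5 gene model UMIs in mural-like cells, 11.8% in fibroblast-like cells and 10.6% and 11.0% in PPDO, while the levels of IGFBP5 itself ranged from 125 to 2048 CPM in these sums. In endocrine-like cells of primary pancreas 2 they equalled 2.87% (49 of 1707 UMIs), so the ratio was not the same in all classes. What these UMIs came from was not tested. Endothelial-like cells had 48.0 and 22.9 CPM of IGFBP2 and endocrine-like cells 16.0 and 14.5 CPM, nearly all from the gene model. Schwann-like cells had 3.62 CPM and acinar-like cells 0.397 and 4.75 CPM. Ductal-like cells had the lowest mean of all classes, next to immune-like cells, whose 0.344 and 0.671 CPM rested on 2 and 1 UMIs.

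The IGFBP1 signal was highest in PPDO, followed by fibroblast-like cells with 24.9 CPM (19.6 to 31.1) and endocrine-like cells with 7.1 and 4.15 CPM. It was not detected in mural-like cells, which allows up to 0.839 and 8.21 CPM, nor in Schwann-like cells. In the remaining named classes it was at most 1.58 CPM. In endocrine-like cells of primary pancreas 2, 16 of 353 IGFBP1 UMIs fell in the gene model, and in every other primary class sum at most 1 did.

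**Figure D3:**
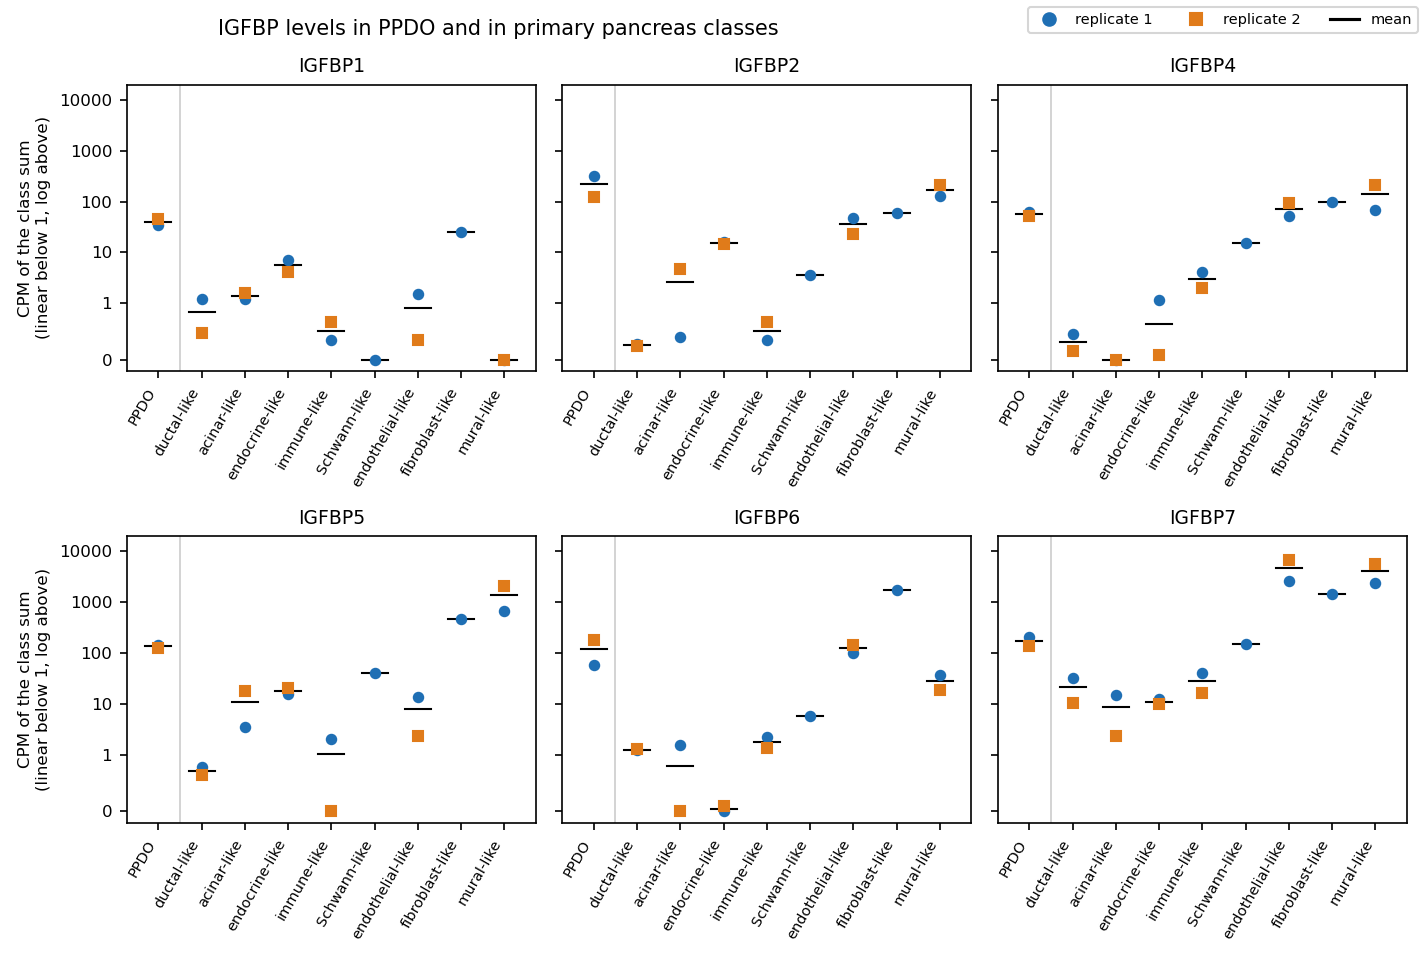
Level of each member in PPDO and in 8 primary classes, as CPM of the class sum (y axis, linear below 1 and logarithmic above). Points are libraries with at least 20 cells of the class, coloured by replicate, and bars are their means. Ductal-like cells are at or near the bottom for IGFBP2, IGFBP4 and IGFBP5, and the highest levels are in endothelial-like and mural-like cells for IGFBP7, mural-like cells for IGFBP5 and fibroblast-like cells for IGFBP6.

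Clusters inside a class differed further. Among endothelial-like cells, cluster 20, led by SEMA3G, which marks arteries, had 222 CPM of IGFBP2 and 14.5 CPM of IGFBP6, whereas cluster 3, led by DYSF and FLT1, had 2.66 CPM of IGFBP2 and 158 CPM of IGFBP6. These values are from primary pancreas 1, and the 14 cells of cluster 20 in primary pancreas 2 had 184 and 26.3 CPM. Cluster 13, led by TLL1 and the adhesion molecule SELP, was in between for IGFBP2, with 58.9 and 38.4 CPM in the 2 pigs. Cluster 16, found only in primary pancreas 2, had the highest IGFBP7 level of the primary clusters, 8077 CPM, and no IGFBP5 UMI. The 2 fibroblast-like clusters of primary pancreas 1 both had over 1000 CPM of IGFBP6, with 1104 CPM in cluster 17, led by CCDC80 and DPT, and 2665 CPM in cluster 22, led by FCN2 and APOD. The IGFBP1 signal was 42.2 CPM in cluster 17 and 0 UMIs in cluster 22. The Schwann-like levels came mostly from cluster 18, led by IL1RAPL2 and CHL1, whose 190 cells in primary pancreas 1 had 230 CPM of IGFBP7, 65.0 CPM of IGFBP5 and 25.9 CPM of IGFBP4. The 154 cells of cluster 21 had 26.9 CPM of IGFBP7, 4.08 CPM of IGFBP5 and no IGFBP4 UMI.

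The members' shares of the family total were then described. Each captured 3′ end counts once whatever the transcript's length, so UMIs were added over the 6 members as counted molecules, the IGFBP1 signal included. The family summed to 818 and 672 CPM in PPDO, 36.9 and 13.1 CPM in ductal-like cells, 2782 and 7068 CPM in endothelial-like cells, 3334 and 8099 CPM in mural-like cells and 3855 CPM in fibroblast-like cells of primary pancreas 1. IGFBP7 made up 92.2% and 96.3% of family UMIs in endothelial-like cells, 72.7% and 69.2% in mural-like cells and 89.2% and 78.6% in ductal-like cells. In PPDO it made up 24.8% and 20.7%, and no member exceeded 38.3%, the share of IGFBP2 in PPDO 1. In PPDO 2 the largest share was that of IGFBP6, at 27.4%.

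The share of cells with a UMI was compared after thinning each cell to 3000 UMIs, since PPDO cells were deeper. The 8824 and 7327 PPDO cells and 2048 and 1171 ductal-like cells that reached this depth were used. IGFBP2 was then found in 42.6% and 25.4% of PPDO cells and in 0.0819% and 0.0698% of ductal-like cells. IGFBP7 was in 39.0% and 30.3% of PPDO cells, IGFBP5 in 30.1% and 26.3%, IGFBP6 in 12.3% and 27.9%, IGFBP4 in 14.4% and 13.4% and the IGFBP1 signal in 8.92% and 11.4%. Ductal-like shares were 7.15% and 3.24% for IGFBP7 and at most 0.480% for the others. The 2 against 2 libraries gave an exact two-sided permutation p = 0.33 for each of the 6, also after Benjamini-Hochberg adjustment over them, which is the smallest this design allows, so no share passed. Immune-like cells, taken as the background class (629 and 138 cells), had 8.91% and 5.46% for IGFBP7 at a median of 6695 and 9128 UMIs before thinning, against 17846 and 20546 UMIs in ductal-like cells. Over the whole class the ductal-like share of IGFBP7 was below the immune-like one in each library, but in ductal-like cluster 8 of primary pancreas 1 it was 14.8%, above it. The ductal-like shares were also below the immune-like ones for IGFBP4 (1.09% and 0.567% of immune-like cells) and IGFBP6 (0.511% and 0.622%). For the other members the order differed between libraries. In primary pancreas 1 the ductal-like share was the higher for the IGFBP1 signal (0.331% against 0.186%) and IGFBP2 (0.0819% against 0.0289%), and in primary pancreas 2 for IGFBP5 (0.191% against 0%), while the remaining library of each had the lower ductal-like share. Unthinned, 87.4% and 87.9% of PPDO cells and 26.7% and 18.2% of ductal-like cells had an IGFBP7 UMI. At 3000 UMIs, 78.4% and 75.2% of PPDO cells had at least 1 UMI of any member, with 1.47 and 1.35 members per cell on average.

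**Figure D4:**
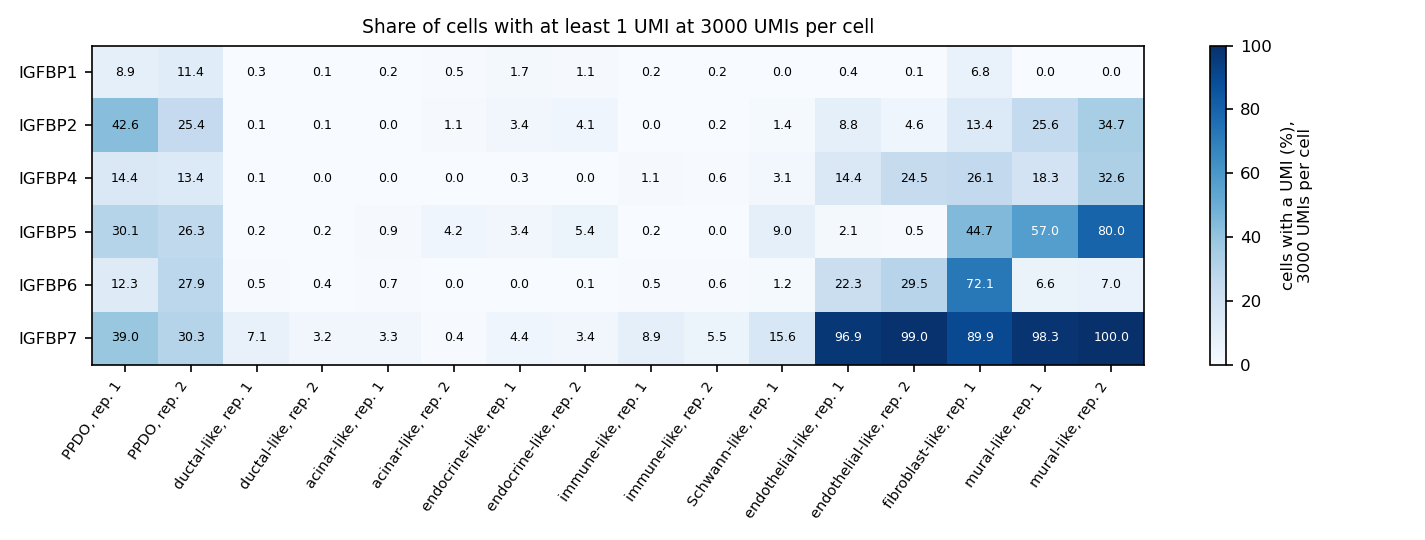
Percent of cells with at least 1 UMI of each member when every cell is thinned to 3000 UMIs, for PPDO and the primary classes (columns are libraries with at least 20 cells of the class). IGFBP7 reached 89.9% to 100% of endothelial-like, fibroblast-like and mural-like cells and 30.3% to 39.0% of PPDO cells.

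For 3 members the order of the 2 PPDO lines was the same in all clusters. IGFBP2 and IGFBP7 were higher in PPDO 1 in 9 of 9 PPDO clusters, and IGFBP6 was higher in PPDO 2 in 9 of 9. The IGFBP1 signal was higher in PPDO 2 in 7 of 9 clusters, IGFBP4 and IGFBP5 in PPDO 1 in 8 of 9. Clusters of 1 library share their source, so this is a description of 1 line against 1 line. The lines also differed in donor age and in the number of passages, which cannot be told apart from the line.

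Within PPDO the members were followed over the 9 clusters, which were made without the IGFBP genes and are named by number and leading genes. Cluster 3, led by the chemokine CXCL14 and HMCN1 (1477 and 1046 cells), had the highest level of 4 members in both lines. IGFBP2 was at 714 and 306 CPM there, IGFBP4 at 107 and 88.5 CPM, IGFBP5 at 289 and 287 CPM and IGFBP7 at 302 and 208 CPM. Cluster 8, a small group led by S100A8 and SPRP (36 and 93 cells), had 19.4 and 16.7 CPM of IGFBP2 and 10.8 and 6.82 CPM of IGFBP5. Cluster 4, led by PLXDC2 and PLA2G4E, was also low, with 49.6 and 18.0 CPM of IGFBP2 and 31.2 and 21.3 CPM of IGFBP5.

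The IGFBP1 signal ran the other way. It was highest in cluster 2, led by ADM and EGLN1, which are known to rise in low oxygen, with 84.2 and 98.1 CPM, and lowest in cluster 3, with 3.49 and 8.78 CPM. Clusters 1 (57.1 and 71.1 CPM), 4 (59.7 and 53.8 CPM) and 7 (57.3 and 62.6 CPM) were also above the PPDO levels of 33.9 and 45.0 CPM. In cluster 2 IGFBP2 (74.6 and 32.8 CPM), IGFBP4 (6.82 and 15.2 CPM) and IGFBP7 (72.4 and 67.8 CPM) were all below their PPDO averages. Cluster 2 was also the shallowest of the large PPDO clusters, with a median of 21761 UMIs per cell.

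For IGFBP6 the highest cluster was not the same in the 2 lines. In both lines cluster 1, led by CORIN and PTGS2, was high, with 123 and 338 CPM. Cluster 2 had 32.7 CPM in PPDO 1, below the PPDO 1 average, but 373 CPM in PPDO 2, the highest of that line. With 1 library a line this difference was not tested. The cycling clusters 5, led by CENPF and TOP2A, and 6, led by DTL, had 58.1 and 107 CPM and 48.0 and 111 CPM of IGFBP6.

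Over the PPDO clusters of each line, the IGFBP4 extension, the IGFBP4 gene model and TNS4 were all highest in cluster 3. In cluster 3 the extension had 88.1 and 81.3 CPM, the gene model 19.2 and 7.20 CPM and TNS4 534 and 578 CPM, whereas in cluster 2 the extension had 6.38 and 14.5 CPM, the gene model 0.434 and 0.618 CPM and TNS4 111 and 238 CPM. From PPDO 1 to PPDO 2 the extension fell from 53.6 to 49.0 CPM and the gene model from 9.34 to 3.63 CPM. TNS4 rose from 385 to 430 CPM. In endothelial-like cells of primary pancreas 1 the extension held 45 UMIs, beside 8 in the TNS4 gene model. In the same library it held 23 beside 1 in fibroblast-like cells, but 6 beside 7 in ductal-like cells. The part of TNS4 in the extension signal was not tested.

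**Figure D5:**
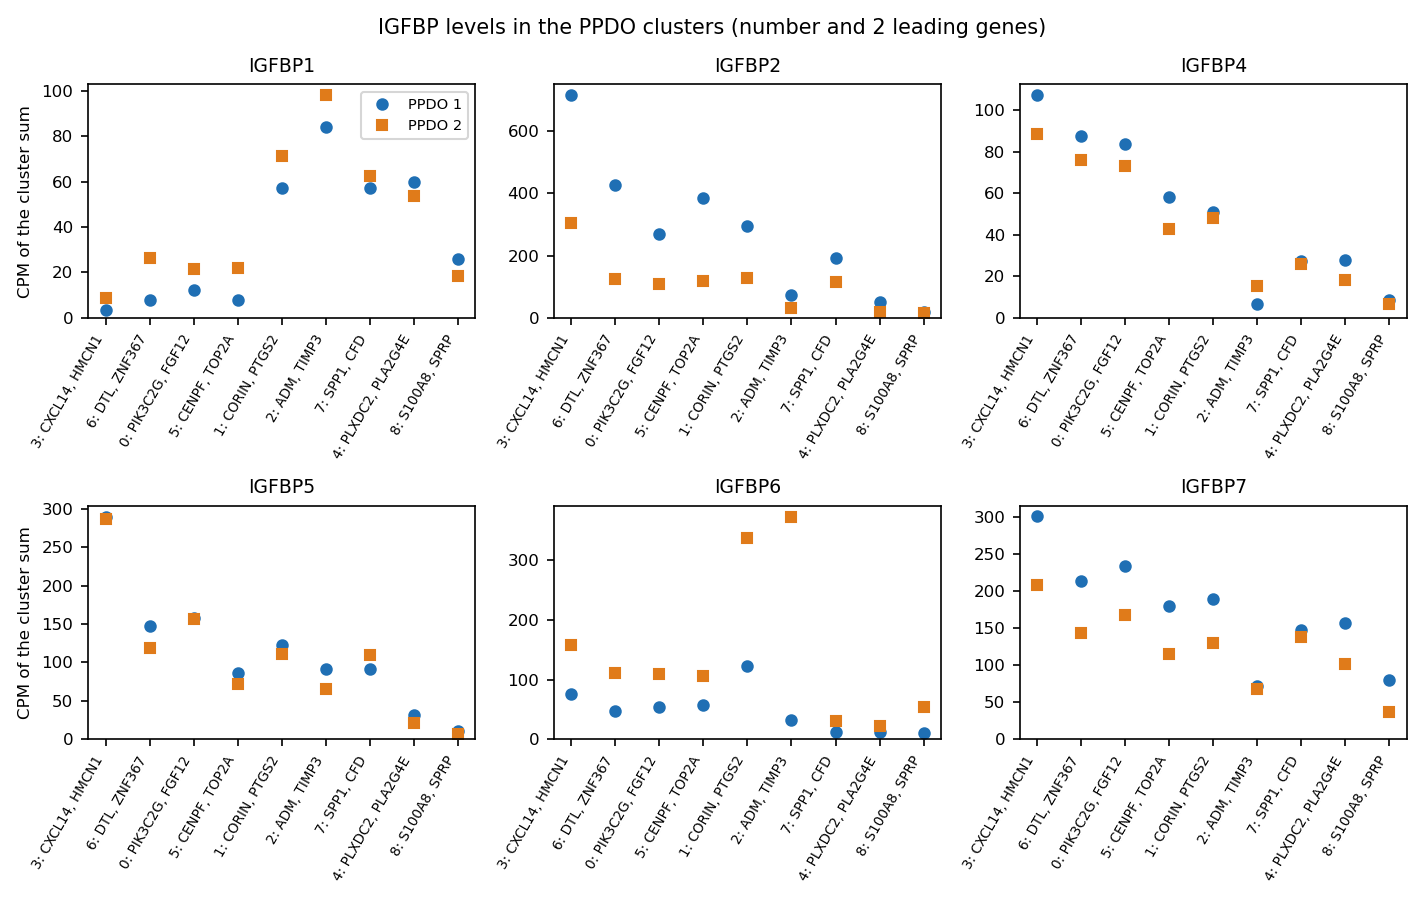
CPM of each member (y axis, from 0) in the 9 PPDO clusters, ordered the same way in each panel and labelled by number and 2 leading genes. Circles are PPDO 1 and squares PPDO 2. IGFBP2, IGFBP4, IGFBP5 and IGFBP7 peak in cluster 3 in both lines, the IGFBP1 signal peaks in cluster 2, and IGFBP6 in cluster 2 is high in PPDO 2 only.

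Other genes of the IGF axis were read from the same fit. Of 20 listed genes with a unique match, all tested, 4 were higher in PPDO than in ductal-like cells, beside 22.8% of all genes tested, and 8 were lower, beside 20.9%, with a median log2 fold change of -0.58 beside 0.01 for all genes tested. The list includes 4 similarly named genes that are not binding proteins of the family, of which IGF2BP3 is among the higher and IGFBPL1 among the lower. IGF2, TMEM219 and LRP1 were not matched. Among receptors, IGF1R, which carries the growth signal, had 224 and 251 CPM in PPDO against 644 and 829 CPM in ductal-like cells (log2 fold change -1.17 ± 0.15, adjusted p = 0.00526, edgeR). The insulin receptor INSR had 14.1 and 10.4 CPM against 83.4 and 112 CPM (-2.54 ± 0.19, adjusted p = 0.00141, edgeR). IGF2R, which clears IGF2, had 32.2 and 26.2 CPM against 52.8 and 51.0 CPM and did not pass (adjusted p = 0.137, edgeR).

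The ligand IGF1 had 0.0365 and 0.0610 CPM in PPDO and 0.371 and 0.360 CPM in ductal-like cells (called lower in PPDO, adjusted p = 0.0153, edgeR). Its highest class level was in fibroblast-like cells, 218 CPM in primary pancreas 1, and acinar-like cells had 43.7 and 21.4 CPM. Of the proteases and their inhibitors, HTRA1 was higher in PPDO, with 110 and 108 CPM against 74.5 and 106 CPM (log2 fold change 0.74, adjusted p = 0.0166, edgeR), although on the CPM scale the groups nearly met. Without scaling beyond the summed UMIs the median log2 fold change of all genes was -0.44, and the axis genes were not recomputed on that scale. STC2, a PAPPA inhibitor, rose by 4.36 on the log2 scale from at most 0.510 CPM (adjusted p = 0.00665, edgeR). ADAM12 and PAPPA2 were lower, by a log2 fold change of -4.02 and -2.85 (adjusted p = 0.00101 and 0.0206, edgeR). ADAM12 had 0.751 and 0.747 CPM in PPDO against 13.2 and 20.5 CPM, and PAPPA2 0.282 and 0.293 CPM against only 1.34 and 4.64 CPM. Free RNA had not been removed, and the part of endocrine RNA in the ductal-like PAPPA2 level was not tested. PAPPA had 3.41 CPM in PPDO 1 and 0.118 CPM in PPDO 2 and did not pass (adjusted p = 0.432, edgeR). The highest PAPPA2 level among the classes was in endocrine-like cells, with 297 and 226 CPM, and that of PAPPA in mural-like cells, with 99.0 and 189 CPM.

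Among adaptors of the receptors, IRS1 was higher in PPDO (42.4 and 36.6 CPM against 23.3 and 25.6 CPM, adjusted p = 0.0048, edgeR). IRS2 was lower (15.2 and 18.1 CPM against 81.3 and 69.9 CPM, adjusted p = 0.00541, edgeR), as was GRB10, which dampens insulin and IGF signals (7.27 and 7.12 CPM against 34.9 and 25.2 CPM, adjusted p = 0.0111, edgeR). The remaining 8 listed genes were IGF2BP3, called higher, IGFBPL1, called lower at under 0.14 CPM, and STC1, IGFALS, IRS4, SHC1, IGF2BP1 and IGF2BP2, which did not pass. The IGF2BP genes encode RNA binding proteins that bind, among others, the IGF2 transcript.

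The CCN genes, which encode matrix proteins with an IGFBP-like domain, were split. CCN3 (76.6 and 91.8 CPM in PPDO against 11.0 and 4.92 CPM in ductal-like cells, adjusted p = 0.00595, edgeR) and CCN4 (38.7 and 55.9 against 2.55 and 0.800 CPM, adjusted p = 0.00561, edgeR) were higher. CCN2 was lower, with 11.8 and 17.5 CPM against 200 and 53.1 CPM (adjusted p = 0.0429, edgeR), and CCN5 was lower at under 0.3 CPM. CCN1 had 20.8 and 27.7 CPM against 202 and 63.8 CPM and did not pass (adjusted p = 0.0611, edgeR), nor did CCN6.

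The genes most alike in pattern were sought among 7283 genes over 16 sums, the primary classes with at least 20 cells in a library and the 2 PPDO libraries, by Pearson's r of log2(CPM + 5). The sums share libraries and are not independent, so r is a description. All features were used, so extension UMIs are part of the patterns of IGFBP4 and IGFBP2. CAV1, the main protein of caveolae, was closest to IGFBP7 (r = 0.98), followed by PTGIS (0.96) and BMP6 (0.95). RERG was closest to IGFBP5 (0.97), ahead of PGF (0.92) and NBL1 (0.91). For IGFBP6 they were F2RL2 (0.92), PPIC (0.88) and P4HA2 (0.87), and for IGFBP2 ANO1 (0.91), LZTS1 (0.89) and AK4 (0.89). LTBP1 (0.94), IGFBP7 itself (0.94) and PPIC (0.93) were closest to IGFBP4. IGFBP1 did not reach 50 CPM in both libraries of any class and was left out.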

How the data were processed

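The data are scRNA-Seq of 4 libraries from pig, and the titles gave the group and replicate number of each. 10x Chromium 3′ chemistry and Cell Ranger 7.1.0 were used by the authors, with a custom annotation of the pig genome (Sscrofa11.1 in the submitters' processing notes). The matrices as deposited hold raw counts of UMIs, beside files that list barcodes and features. Free RNA had not been removed.

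All features of a gene were summed. Cells were filtered after the study's methods. These give PPDO a lower limit of 600 features for one line and 1000 for the other. As the libraries could not be matched to the lines, 1000 was used for both, with 600 as an alternative. The other limits were over 400 features in primary pancreas 1, over 800 features and 3000 UMIs in primary pancreas 2, no more than 9000 features, and a share of mitochondrial UMIs up to 3% in PPDO and under 8% in primary cells. In addition, 89 and 154 suspected doublets (Scrublet) were removed from primary pancreas 1 and 2, and none from PPDO. Clustering used Scanpy 1.11.5 without the IGFBP genes (Leiden resolution 0.5). A cluster took the name of the marker list with the highest mean fold if at least 3 of its markers passed, whether or not they were among its 10 leading genes. It stayed unnamed where another list held more of those 10, where a shallow cluster had none of its list among them, or, in PPDO, where replication genes led. The library totals were 366263520, 316018482, 87043513 and 138928395 UMIs. Sums per library were tested with edgeR 4.0.16 (quasi-likelihood, TMM, filterByExpr, adjusted p threshold 0.05), and an SE is the log2 fold change divided by the square root of F. Counts of this comparison were simulated at a dispersion of 0.05 with 200 genes changed. Of those tested, 15 of 103 with a 2-fold and 72 of 89 with a 4-fold change were recovered, and 1 of 22677 unchanged genes was called. These rates hold for that setting only. DESeq2 1.42.0 was an alternative. Shares were thinned by the expected value over draws of 3000 UMIs and compared over libraries by an exact permutation test.

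Genes named are the members, the fixed lists of the IGF axis and CCN genes, and the 3 genes most alike in pattern. Neighbours and leading genes of clusters were named after their values were seen. The members, lists and naming limits were chosen with earlier results of these data known. Positions are from RefSeq.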

Additional observations from a re-analysis of the deposited data

How the results depend on the processing

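The 6 members stayed higher in PPDO than in primary ductal-like cells in 113 of 114 values under 20 alternatives. IGFBP1 counts there as the signal beside its gene. The exception was IGFBP7 without PPDO 1 (log2 fold change 3.10), and no direction reversed. Leaving out 1 library at a time gave log2 fold changes of 5.35 to 6.89 (IGFBP1), 9.34 to 10.60 (IGFBP2), 7.27 to 9.02 (IGFBP4), 7.74 to 8.26 (IGFBP5), 5.95 to 7.66 (IGFBP6) and 2.69 to 4.58 (IGFBP7), with 4787 to 10731 genes called, 2515 to 5503 of them higher in PPDO, against 10274 and 5370 with all 4 libraries. The lone library of a group is there assumed to vary like the other group. Without scaling beyond the summed UMIs 3293 genes were called higher, or 32.2% of calls against 52.3%. Replicate numbers did not pair the libraries (Pearson's r of deviations -0.01 over 23510 genes), and a replicate block gave 8303 calls and kept 6 members higher. On base gene features alone 6739 genes were left, 2709 were called, 1407 of them higher, and IGFBP7 was the 1 member left. IGFBP2, IGFBP4, IGFBP5 and IGFBP6 gave no value there, and IGFBP1 had too few UMIs.

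Leaving out extensions and leaving out primary ductal-like cluster 8 were chosen after seeing the data. Without extensions, and on base features, the IGFBP1 signal in fibroblast-like cells was 0 CPM. Without extensions IGFBP2 in mural-like cells was 40.5 CPM, and the range over PPDO clusters was 12.9 CPM for IGFBP4 and 273 CPM for IGFBP5. IGFBP6 in fibroblast-like cells was 1795 CPM with 1 filter for both primary libraries, 1840 CPM at resolution 1.0 and 1668 CPM as a mean over cells. Among the primary classes with at least 20 cells, the leading class was the same for 4 members without primary pancreas 1, where that of IGFBP1 became endocrine-like (4.15 CPM) and that of IGFBP6 endothelial-like (143 CPM), and for 5 without primary pancreas 2, where that of IGFBP4 became fibroblast-like (99.8 CPM). The range over PPDO clusters was 130 CPM for IGFBP1 and 288 CPM for IGFBP5 at resolution 1.0, 246 CPM for IGFBP5 at resolution 0.3, and with a floor of 600 features 77.8 CPM (IGFBP1), 245 CPM (IGFBP5) and 275 CPM (IGFBP7).

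The difference in the share of cells, PPDO minus ductal-like, was in percentage points without thinning 40.5 (IGFBP1), 73.1 (IGFBP2), 60.5 (IGFBP4), 75.6 (IGFBP5), 51.2 (IGFBP6) and 65.2 (IGFBP7), and at 1500 UMIs 5.51 (IGFBP1), 7.36 (IGFBP4), 16.6 (IGFBP5) and 16.8 (IGFBP7). Without extensions it was 1.64 for IGFBP4. At 1500 UMIs IGFBP2 was in 29.2% and 15.4% of PPDO cells and IGFBP6 in 7.20% and 18.7%, against at most 0.260% of ductal-like cells. Thinning lowers every share by construction, and the cause of the other shifts was not tested. With 12 and 6 IGFBP2 UMIs and 20 and 4 IGFBP4 UMIs in ductal-like cells, the sizes of these fold changes are set by few molecules.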
